A study of Mus musculus with 23 samples.

Results

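The dual-specificity phosphatases described here are the 10 genes *Dusp1*, *Dusp2*, *Dusp4*, *Dusp5*, *Dusp6*, *Dusp7*, *Dusp8*, *Dusp10*, *Dusp14* and *Dusp16*, which were chosen by name, and whose probes were found through the RefSeq accession that the scanner files give for each probe. All 10 were on the array, with 12 probes out of 55681, and they form 10 of the 26014 genes tested. The cells were bone marrow-derived macrophages (BMDM) of male C57BL/6 mice aged 10 to 14 weeks, differentiated with M-CSF. wt BMDM, BMDM of MK2-deficient mice (MK2-/-) and BMDM of mice lacking both MK2 and MK3 (MK2/3-/-) were kept in medium alone or treated for 120 min with LPS at 100 ng/ml. Each of these 6 groups had 4 arrays, with the exception of MK2-/- BMDM in medium, which had 3, making 23 one-colour arrays in all. The mice carried the deletions, so the cells had lacked the kinases before and during differentiation, and BMDM lacking MK3 alone were not analysed here.

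MAP kinases are switched on by phosphorylation of a threonine and a tyrosine in their activation loop, and dual-specificity phosphatases remove both phosphates. *Dusp1*, *Dusp2*, *Dusp4* and *Dusp5* encode nuclear, inducible members, made as delayed feedback on the pathway that induced them. Those of *Dusp6* and *Dusp7* are selective for ERK and act in the cytoplasm, and a further branch prefers JNK and p38. In macrophages LPS activates ERK, JNK and p38 through TLR4, and MK2 and MK3 are kinases directly downstream of p38 that act on the stability and translation of many inflammatory mRNAs.

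Levels are normalized log2 signals, in which 1 unit is a doubling, and they are compared between arrays for the same probe and never between probes. *Mapkapk2*, the gene of MK2, had a mean log2 signal of 12.22 for wt, 8.91 for MK2-/- and 8.72 for MK2/3-/- BMDM in medium, and *Mapkapk3*, the gene of MK3, of 13.50, 13.74 and 11.88. After LPS the probe of *Mapkapk2* still gave 11.96 in MK2-/- and 11.76 in MK2/3-/- BMDM, next to 14.77 in wt BMDM. Of the 8 macrophage markers 7 were measured, and each was well above background on all 23 arrays. Of the markers of other blood cells, *Cd3e* (T cells), *Elane*, *Ltf* and *Camp* (neutrophils and precursors) and *Flt3* (dendritic cells) were also well above background on all 23 arrays, and *Clec9a* (dendritic cells) on 0. *Cd8a* and the dendritic cell gene *Xcr1* were above it on 1 array each, and the NK cell gene *Ncr1* on 4. The summed signal of the 4 dendritic cell markers was at most 333 in medium and 949 to 1947 after LPS. Most of the sum after LPS came from *Zbtb46*, whose log2 signal ran from 3.39 to 10.86 over the 23 arrays. *Flt3* reached at most 8.26, *Clec9a* 3.83 and *Xcr1* 3.63. The part of dendritic cells in the LPS results was not tested. Among the fibroblast markers the collagen genes *Col1a1* and *Col3a1* varied widely between cultures, while *Pdgfra* was above background on 3 arrays. The log2 of their summed signal, to which *Col1a1* gave most, was 6.74 to 14.43 in medium. Within a culture it varied less, as the medium and LPS arrays of the same culture differed by at most 0.75. Each genotype had its own slide, so genotype and slide cannot be told apart. On every slide the medium arrays lay in row 1 and the LPS arrays in row 2, so treatment and row cannot be told apart either. On LPS replicate 1 of MK2-/- and on medium replicate 2 of MK2/3-/- BMDM the scanner software held no fit for a gradient across the array.

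The promoters of 4 members are shown because they carry the letters of known inducible elements and because they differ in whether the gene responded to LPS. RefSeq promoter windows (GRCm38.p6) were given for 9 of the 10 members, with *Dusp4* missing, and each reached from 250 bases before to 50 bases after the annotated start. The motifs searched on both strands were the cyclic AMP response element TGACGTCA, its core TGACG, which is contained in the full element, the AP-1 site TGACTCA, the NF-kB consensus and the CArG box of the serum response factor. The lines give the 250 bases before the start, 5′ to 3′ on the strand of the gene, with motif matches in capitals. They span chr17:26508473-26508722 (minus strand) for *Dusp1*, chr19:53528895-53529144 (plus strand) for *Dusp5*, chr7:142095285-142095534 (minus strand) for *Dusp8* and chr6:134792629-134792878 (minus strand) for *Dusp16*.
Dusp1: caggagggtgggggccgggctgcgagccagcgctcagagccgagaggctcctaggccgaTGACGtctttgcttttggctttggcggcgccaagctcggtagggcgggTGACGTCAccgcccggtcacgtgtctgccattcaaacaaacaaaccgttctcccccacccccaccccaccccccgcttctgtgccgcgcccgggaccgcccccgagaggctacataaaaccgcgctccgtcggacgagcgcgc
Dusp5: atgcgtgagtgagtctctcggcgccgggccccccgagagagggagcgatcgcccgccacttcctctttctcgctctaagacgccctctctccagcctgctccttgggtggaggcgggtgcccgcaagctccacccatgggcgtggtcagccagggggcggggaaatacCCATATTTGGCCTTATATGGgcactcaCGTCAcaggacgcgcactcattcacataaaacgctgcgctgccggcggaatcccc
Dusp8: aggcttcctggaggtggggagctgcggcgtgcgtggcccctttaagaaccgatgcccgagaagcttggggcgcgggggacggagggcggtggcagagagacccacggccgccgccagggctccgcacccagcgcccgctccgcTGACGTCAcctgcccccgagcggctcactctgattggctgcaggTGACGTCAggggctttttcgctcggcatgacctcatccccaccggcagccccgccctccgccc
Dusp16: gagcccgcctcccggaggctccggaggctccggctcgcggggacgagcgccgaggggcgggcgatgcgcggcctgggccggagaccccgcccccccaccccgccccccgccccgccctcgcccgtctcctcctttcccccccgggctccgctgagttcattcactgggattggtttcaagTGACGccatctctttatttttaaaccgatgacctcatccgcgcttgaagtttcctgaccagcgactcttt
The full element TGACGTCA stood in 2 of the 9 member promoters, compared with 1.79% of all 32851 promoter windows. *Dusp1* held 1 copy, which began 143 bases before the start, and *Dusp8* held 2, which began 107 and 63 bases before it. The core was found in 5 member promoters (20.8% of all windows): those of *Dusp1*, *Dusp2*, *Dusp5*, *Dusp8* and *Dusp16*. A CArG box occurred only in *Dusp5* among the 9 (1.63% of all windows), as a pair of adjoining copies with an inverted core close behind them. No member window matched the AP-1 site (5.20% of all windows) or the NF-kB consensus (8.46%), which says only that these letters are not in these windows.

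With LPS, 6 of the 10 phosphatases rose in wt BMDM and 5 in each mutant. *Dusp1*, *Dusp2*, *Dusp5*, *Dusp14* and *Dusp16* rose in all 3 genotypes, and *Dusp4* in wt BMDM. The size of the rise ran from 4.32-fold for *Dusp4* to 277-fold for *Dusp2* in wt BMDM. *Dusp7* fell in MK2-/- BMDM, while *Dusp6*, *Dusp8* and *Dusp10* did not pass the test in any genotype. The tests were limma fits across all genes with Benjamini-Hochberg adjustment, called at an adjusted p under 0.05, with exact two-sided permutation tests beside them whose smallest possible p is 0.0286. Of all genes, 8.26% rose and 8.89% fell in wt BMDM, 8.48% rose and 10.1% fell in MK2-/- BMDM, and 11.9% rose and 12.9% fell in MK2/3-/- BMDM. A rise in all 3 genotypes was called for 6.32% of the genes. The median log2 change of the members in wt BMDM was 2.35, next to 0.0051 over all genes.

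**Figure D1:**
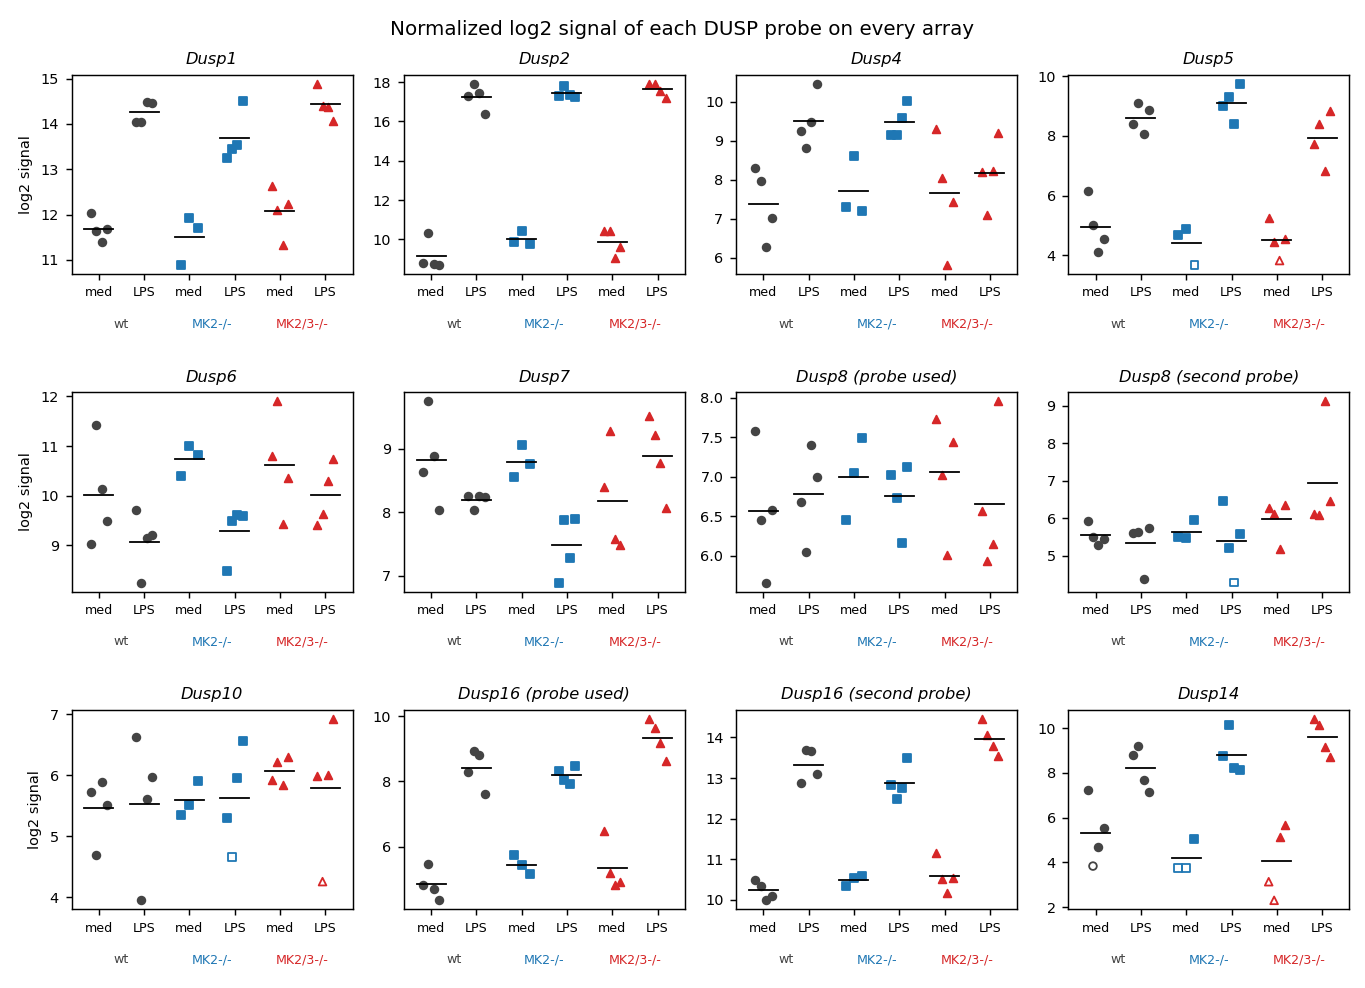
Normalized log2 signal of each of the 12 DUSP probes (vertical axes, a scale of its own for each probe) on every array, by genotype and treatment (med, medium). Points are arrays, open where the signal was not well above background, and bars are group means. The LPS arrays of *Dusp1*, *Dusp2*, *Dusp5* and *Dusp16* lie above all medium arrays of the same genotype.

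*Dusp2* (PAC-1, a nuclear phosphatase of haematopoietic cells, NM_010090) had by far the largest rise among the members. In wt BMDM its log2 signal in medium was 8.80, 10.30, 8.73 and 8.72 in replicates 1 to 4, and after LPS 17.27, 17.92, 17.43 and 16.38. The MK2-/- arrays read 9.87, 10.43 and 9.76 in medium and 17.28, 17.81, 17.33 and 17.25 after LPS. Those of MK2/3-/- BMDM read 10.45, 10.45, 9.05 and 9.62 in medium and 17.91, 17.92, 17.53 and 17.21 after LPS. Medium and LPS arrays were thus far apart in every genotype, and the LPS arrays of the genotypes overlapped. The log2 difference was 8.11 ± 0.38 (SE) for wt (adjusted p = 1.12e-11), 7.40 ± 0.41 for MK2-/- (adjusted p = 1.88e-10) and 7.75 ± 0.38 for MK2/3-/- BMDM (adjusted p = 2.48e-11). In wt BMDM this rise ranked 17 from the top of the 26014 genes. No spot was marked as saturated on any array.

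*Dusp1* (MKP-1, NM_013642) is a nuclear phosphatase with a preference for p38 and JNK and an immediate early gene of the LPS response. The wt arrays gave 12.03, 11.63, 11.39 and 11.68 in medium and 14.04, 14.05, 14.49 and 14.45 after LPS. In MK2-/- BMDM the log2 signal was 10.89, 11.93 and 11.71 in medium and 13.24, 13.44, 13.55 and 14.50 after LPS. In MK2/3-/- BMDM it was 12.62, 12.10, 11.32 and 12.24 in medium and 14.89, 14.40, 14.38 and 14.06 after LPS. No medium array reached an LPS array of its genotype. The rise was 5.97-fold for wt (log2 difference 2.58 ± 0.30, adjusted p = 3.08e-06), 4.51-fold for MK2-/- (2.17 ± 0.32, adjusted p = 5.65e-05) and 5.13-fold for MK2/3-/- BMDM (2.36 ± 0.30, adjusted p = 6.38e-06). Within the cultures that had both arrays, the increase on the log2 scale was between 1.52 and 3.10, and it was seen in all 11.

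*Dusp5* (NM_001085390) encodes a nuclear phosphatase that acts on ERK alone. Its log2 signal in wt BMDM was 6.15, 5.00, 4.11 and 4.55 in medium and 8.39, 9.10, 8.08 and 8.88 after LPS. MK2-/- arrays had 4.67, 4.86 and 3.68 in medium and 8.99, 9.31, 8.39 and 9.76 after LPS. MK2/3-/- arrays had 5.23, 4.44, 3.82 and 4.53 in medium and 7.72, 8.39, 6.81 and 8.83 after LPS. The gene was near background in medium, with 1 array of each mutant not well above it, and no groups of a genotype overlapped. The rise was 12.6-fold for wt (log2 difference 3.66 ± 0.47, adjusted p = 1.08e-05), 26.2-fold for MK2-/- (4.71 ± 0.51, adjusted p = 1.12e-06) and 10.8-fold for MK2/3-/- BMDM (3.43 ± 0.47, adjusted p = 1.49e-05).

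*Dusp4* (MKP-2, NM_176933), a nuclear phosphatase of ERK and JNK, varied widely between the arrays of a group. wt BMDM had log2 signals of 8.31, 7.96, 6.28 and 7.02 in medium and of 9.26, 8.80, 9.49 and 10.47 after LPS. MK2-/- BMDM had 7.31, 8.60 and 7.19 in medium and 9.15, 9.15, 9.58 and 10.03 after LPS. MK2/3-/- BMDM had 9.30, 8.05, 5.83 and 7.44 in medium and 8.19, 7.09, 8.21 and 9.20 after LPS. The LPS arrays lay above the medium arrays in wt and MK2-/- BMDM, whereas in MK2/3-/- BMDM they overlapped, and replicates 1 and 2 were lower after LPS and replicates 3 and 4 higher. The log2 difference was 2.11 ± 0.62 for wt (adjusted p = 0.0218), 1.78 ± 0.67 for MK2-/- (adjusted p = 0.0731) and 0.52 ± 0.62 for MK2/3-/- BMDM (adjusted p = 0.623). With the culture as a block the value for MK2-/- BMDM passed (adjusted p = 0.0483). The call in wt BMDM was lost without LPS replicate 4 (adjusted p = 0.0679), medium replicate 3 (0.0863) or medium replicate 4 (0.0621).

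**Figure D2:**
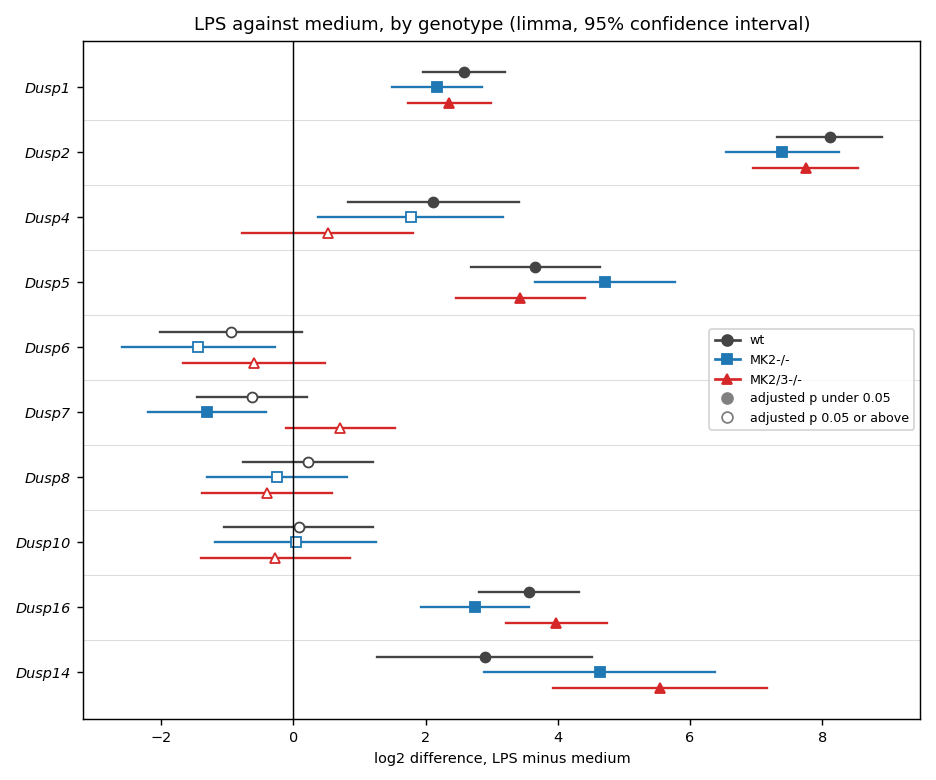
Log2 difference between LPS and medium (horizontal axis, limma) of each DUSP gene in wt (circles), MK2-/- (squares) and MK2/3-/- BMDM (triangles). Lines are 95% confidence intervals, and filled symbols have an adjusted p under 0.05. *Dusp1*, *Dusp2*, *Dusp5*, *Dusp14* and *Dusp16* are filled in all genotypes, *Dusp4* in wt and *Dusp7* in MK2-/- BMDM.

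For the cytoplasmic, ERK-selective members no rise was called in any genotype in the fit of all 23 arrays. *Dusp7* (MKP-X, NM_153459) had log2 signals of 8.64, 9.75, 8.89 and 8.03 in medium and of 8.26, 8.04, 8.26 and 8.23 after LPS in wt BMDM. MK2-/- BMDM gave 8.55, 9.06 and 8.76 in medium and 6.89, 7.87, 7.27 and 7.89 after LPS. In MK2/3-/- BMDM the values were 8.39, 9.29, 7.57 and 7.48 in medium and 9.51, 9.22, 8.77 and 8.06 after LPS. The MK2-/- LPS arrays were therefore below every medium array of that genotype, while the groups of the other genotypes overlapped. The gene fell by 1.31 on the log2 scale for MK2-/- BMDM (SE 0.43, adjusted p = 0.0372), and the log2 difference was -0.63 ± 0.40 for wt (adjusted p = 0.348) and 0.71 ± 0.40 for MK2/3-/- BMDM (adjusted p = 0.219). The call in MK2-/- BMDM was lost without LPS replicate 1 (adjusted p = 0.104) or 3 (0.0782), and without medium replicate 1 (0.0607), 2 (0.133) or 3 (0.0849). It was also lost without both arrays lacking a gradient fit (0.0588). In MK2/3-/- BMDM *Dusp7* was called, with higher signals after LPS, without medium replicate 2 and without both arrays lacking a gradient fit.

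*Dusp6* (MKP-3, NM_026268), the most studied cytoplasmic phosphatase of ERK, ran from 8.25 to 11.90 over all arrays. Its log2 difference was -0.94 ± 0.51 for wt (adjusted p = 0.261), -1.44 ± 0.55 for MK2-/- (adjusted p = 0.0791) and -0.60 ± 0.51 for MK2/3-/- BMDM (adjusted p = 0.454). In MK2-/- BMDM the LPS arrays read 8.48 to 9.62 and the medium arrays 10.40 to 11.00. The exact permutation p was 0.0286, the smallest that this test can give. The difference there was called by limma with only both groups in the fit (adjusted p = 0.0290), with normexp background correction (0.0392) and without dim probes (0.0488).

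Within the further branch that prefers JNK and p38, here *Dusp8*, *Dusp10* and *Dusp16*, *Dusp16* was the 1 called with LPS. *Dusp16* (MKP-7, NM_130447) had 2 probes, whose log2 signals had a Pearson r of 0.984 over the 23 arrays, a description of 1 set of arrays that share the LPS response. On the probe used, wt BMDM had 4.84, 5.48, 4.71 and 4.36 in medium and 8.30, 8.92, 8.80 and 7.63 after LPS. MK2-/- BMDM had 5.75, 5.44 and 5.15 in medium and 8.33, 8.06, 7.94 and 8.47 after LPS. MK2/3-/- BMDM had 6.50, 5.19, 4.83 and 4.91 in medium and 9.91, 9.63, 9.18 and 8.63 after LPS. All LPS arrays were above all medium arrays. The rise was 11.9-fold for wt (log2 difference 3.57 ± 0.36, adjusted p = 6.10e-07), 6.73-fold for MK2-/- (2.75 ± 0.39, adjusted p = 3.51e-05) and 15.7-fold for MK2/3-/- BMDM (3.98 ± 0.36, adjusted p = 9.66e-08). On the second probe it was 8.62-fold, 5.31-fold and 10.4-fold in the same order. The probe used is the one with the larger wt response by rule, which bears on the wt value.

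*Dusp8* (M3/6, NM_008748) and *Dusp10* (MKP-5, NM_022019) did not pass in any genotype. *Dusp8* had log2 differences of 0.22 ± 0.47 for wt, -0.24 ± 0.51 for MK2-/- and -0.40 ± 0.47 for MK2/3-/- BMDM, with 95% confidence intervals from -0.77 to 1.20, -1.30 to 0.82 and -1.39 to 0.58. Its pair of TGACGTCA copies thus stands in a promoter whose gene showed no called response, while *Dusp1* with 1 copy rose. The 2 probes of *Dusp8* did not move together, with a Pearson r of 0.0795 over the 23 arrays. *Dusp10* had log2 differences of 0.08 ± 0.54, 0.03 ± 0.58 and -0.28 ± 0.54, with intervals of -1.05 to 1.21, -1.19 to 1.25 and -1.41 to 0.85. These intervals leave room for changes of about 1 log2 unit either way.

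*Dusp14* (MKP-6, NM_019819), a small phosphatase without the MAP kinase-binding domain of the others, had a rise in all genotypes from a low level. In wt BMDM its log2 signal was 7.25, 3.83, 4.66 and 5.52 in medium and 8.82, 9.18, 7.69 and 7.14 after LPS. MK2-/- BMDM had 3.74, 3.74 and 5.04 in medium and 8.74, 10.12, 8.23 and 8.14 after LPS. MK2/3-/- BMDM had 3.13, 2.30, 5.12 and 5.68 in medium and 10.39, 10.14, 9.15 and 8.72 after LPS. In both mutants the groups were apart, and in wt BMDM LPS replicate 4 was below medium replicate 1. The rise was 7.41-fold for wt (log2 difference 2.89 ± 0.77, adjusted p = 0.0123, exact permutation p = 0.0571), 24.8-fold for MK2-/- (4.63 ± 0.84, adjusted p = 0.000429) and 46.5-fold for MK2/3-/- BMDM (5.54 ± 0.77, adjusted p = 1.98e-05). With the fibroblast marker level in the fit the log2 difference was 3.87 for wt, 3.92 for MK2-/- and 5.14 for MK2/3-/- BMDM. In medium 5 of the 11 arrays were not well above background, so the folds start from a level close to it. The wt call was lost without medium replicate 2 (adjusted p = 0.0523) and with only the wt groups in the fit (0.0507).

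The level of *Dusp14* in medium rose with that of the fibroblast markers, and its relation to them differed after LPS. The 5 medium arrays on which it was not well above background had a log2 marker sum of at most 9.57, and the 6 on which it was had one of at least 11.54. In a limma fit with a slope on the marker level for each treatment within the 6 groups, *Dusp14* had a slope of 0.42 ± 0.09 log2 units per log2 unit of marker signal in medium (adjusted p = 0.0122) and of -0.28 ± 0.09 after LPS (adjusted p = 0.0601). The slopes differed by -0.70 ± 0.13 (adjusted p = 0.0277), a difference called in the lower direction for 0.427% of all genes. In medium the slope was called above 0 for 1.57% of all genes. The LPS response of *Dusp14* was thus larger in cultures with little marker signal, at 7.26 and 7.84 in replicates 1 and 2 of MK2/3-/- and 4.03 and 3.04 in replicates 3 and 4. This fit was chosen after the values had been seen. The slope in medium no longer passed without medium replicate 2 of wt (adjusted p = 0.0588) or medium replicate 4 of MK2/3-/- BMDM (adjusted p = 0.0852). The difference of the slopes passed in 15 of 23 fits that left out 1 array. It was lost without LPS replicate 2 or medium replicate 2 of wt, without LPS replicate 2 or 4 or medium replicate 3 of MK2-/-, and without LPS replicate 2 or 4 or medium replicate 4 of MK2/3-/- BMDM, with an adjusted p of up to 0.119. In such mixed samples fewer cells of a type and less RNA per cell cannot be told apart, and the part of other cells in the level of *Dusp14* was not tested.

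**Figure D3:**
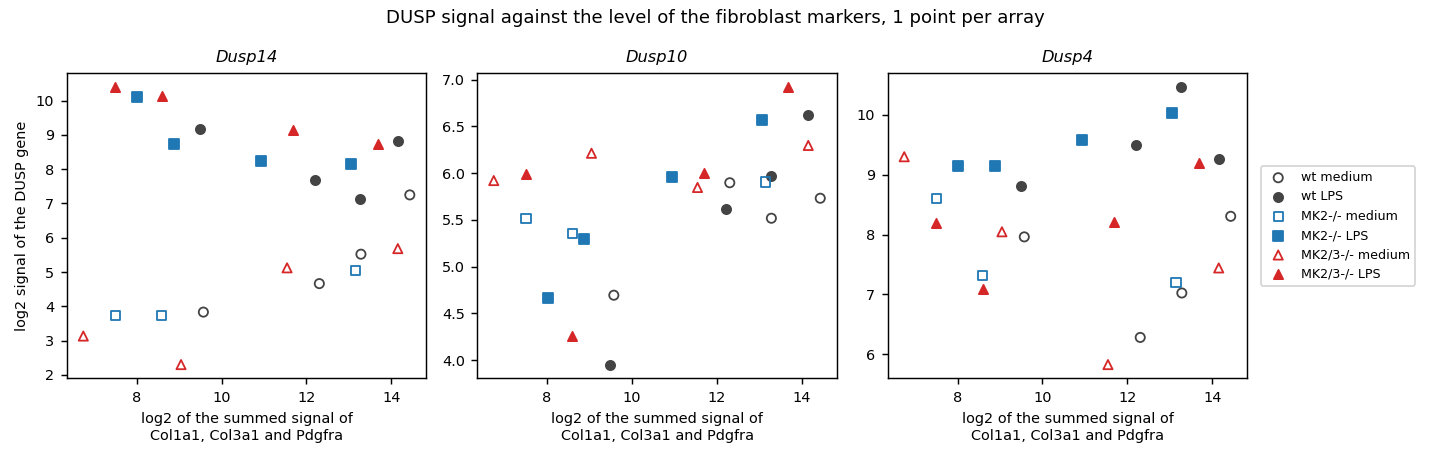
Log2 signal of *Dusp14*, *Dusp10* and *Dusp4* (vertical axes) against the log2 of the summed signal of *Col1a1*, *Col3a1* and *Pdgfra* (horizontal axes), with 1 point per array, open in medium and filled after LPS. *Dusp14* is higher with more marker signal in medium (slope 0.42) while its slope after LPS is -0.28 (adjusted p = 0.0601), and *Dusp10* is higher with more marker signal after LPS (slope 0.36).

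*Dusp10* was the other member with a called slope. After LPS it was 0.36 ± 0.07 (adjusted p = 0.00235), which passed in all 23 fits that left out 1 array, and 7.33% of all genes had a called slope above 0 there. In wt BMDM after LPS, *Dusp10* was 6.62, 3.95, 5.61 and 5.97 in replicates 1 to 4, where the log2 marker sum was 14.15, 9.49, 12.21 and 13.27. In medium the slope of *Dusp10* was 0.08 ± 0.06 (adjusted p = 0.606). The slopes of *Dusp4* were -0.21 ± 0.10 in medium (adjusted p = 0.343) and 0.20 ± 0.11 after LPS (adjusted p = 0.231). With the marker level in the fit, the LPS difference of *Dusp4* was 1.54 for wt BMDM (adjusted p = 0.0655) and 2.17 for MK2-/- BMDM (adjusted p = 0.0133), so that each moved to the other side of the threshold. The 5 members called in all genotypes, *Dusp1*, *Dusp2*, *Dusp5*, *Dusp14* and *Dusp16*, were called in that fit as well. *Dusp6*, not called in wt BMDM without the marker level, was called there with it. In MK2-/- BMDM the log2 difference of *Dusp6* in that fit was -1.08 (adjusted p = 0.116).

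Between genotypes no member passed the adjusted test in LPS-treated BMDM. MK2-/- differed from wt BMDM for 0 of the 10 members (0.0308% of all genes), MK2/3-/- from wt BMDM for 0 (1.64%) and MK2/3-/- from MK2-/- BMDM for 0 (0.161%). The 1.64% stands for 201 higher and 226 lower genes, which came to 0 and 6 with only both groups in the fit. With the test of the study's methods these counts were 0 and 5 after Benjamini-Hochberg adjustment. The paper describes no such adjustment for its array comparisons. At an unadjusted limma p under 0.05 the counts were 0, 2 and 5 members, next to 7.50%, 13.6% and 7.91% of all genes. The test of the study's methods, on log2 signals and with Benjamini-Hochberg adjustment, also called 0 in each comparison. The 5 members under that unadjusted limit between MK2/3-/- and MK2-/- BMDM were *Dusp1*, *Dusp7* and *Dusp16*, which were higher in MK2/3-/- BMDM, and *Dusp4* and *Dusp5*, which were lower.

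*Dusp7* and *Dusp16* were the members whose LPS arrays did not overlap between MK2-/- and MK2/3-/- BMDM, as was the case for 5.13% of all genes. *Dusp7* was 8.20 ± 0.11 (SD, n = 4) for wt, 7.48 ± 0.49 for MK2-/- and 8.89 ± 0.63 for MK2/3-/- BMDM after LPS. In MK2/3-/- compared with MK2-/- BMDM it was higher by 1.41 ± 0.40 on the log2 scale (adjusted p = 0.239), with an exact permutation p of 0.0286. For MK2-/- against wt BMDM after LPS, *Dusp7* had a log2 difference of -0.71 ± 0.40 (adjusted p = 0.692, exact permutation p = 0.0286). There the MK2-/- arrays read 6.89 to 7.89 and the wt arrays 8.04 to 8.26. *Dusp16* was 8.41 ± 0.59 for wt, 8.20 ± 0.24 for MK2-/- and 9.34 ± 0.56 for MK2/3-/- BMDM. It was higher in MK2/3-/- than in MK2-/- BMDM by 1.14 ± 0.36 (adjusted p = 0.324), and its second probe by 1.07 ± 0.25 (adjusted p over all probes = 0.126). Against wt BMDM the difference of *Dusp16* was 0.92 ± 0.36 (adjusted p = 0.251). With the marker level in the fit, the adjusted p between the mutants was 0.0967 for *Dusp7* and 0.0873 for *Dusp16*.

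**Figure D4:**
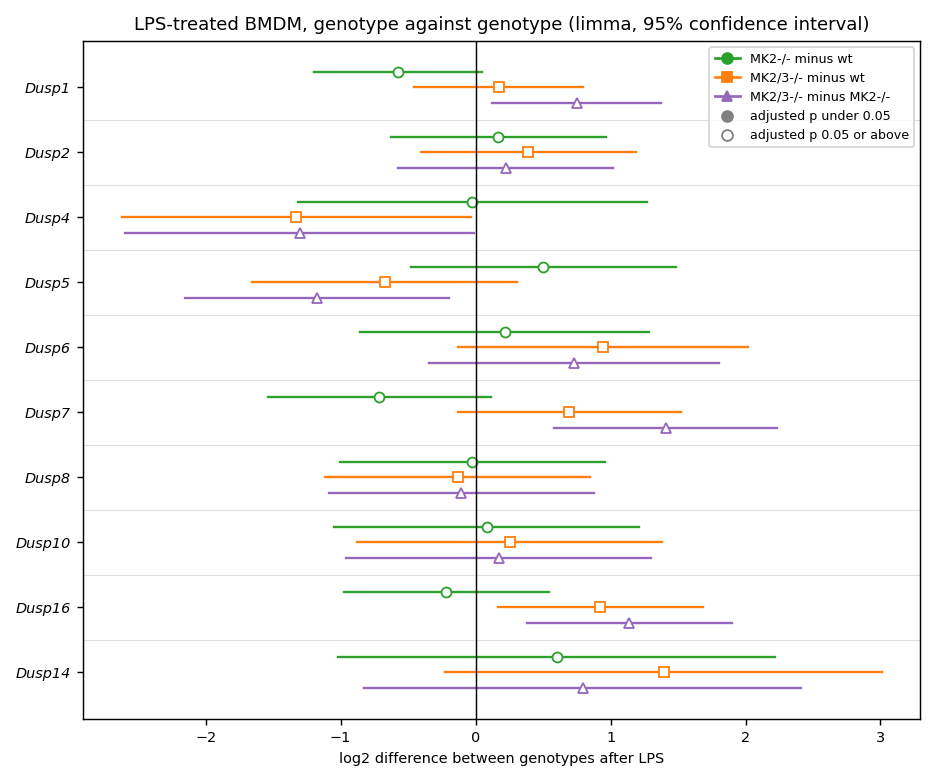
Log2 difference between genotypes after LPS (horizontal axis, limma) for each DUSP gene: MK2-/- minus wt (circles), MK2/3-/- minus wt (squares) and MK2/3-/- minus MK2-/- (triangles). Lines are 95% confidence intervals, and all symbols are open since no adjusted p was under 0.05. The intervals of *Dusp1*, *Dusp7* and *Dusp16* for MK2/3-/- minus MK2-/- lie above 0 and those of *Dusp4* and *Dusp5* below it.

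The other members are given with their scatter. *Dusp14* had the largest mean difference between MK2/3-/- and wt BMDM among the members on the probes used (1.39 ± 0.77, adjusted p = 0.458), with overlapping arrays. *Dusp6* differed there by 0.94 ± 0.51 (adjusted p = 0.446), with all 4 MK2/3-/- arrays above the wt mean. *Dusp4* after LPS had a mean of 9.50 ± 0.70 (SD, n = 4) for wt, 9.48 ± 0.42 for MK2-/- and 8.17 ± 0.86 for MK2/3-/- BMDM. In MK2/3-/- BMDM it was lower than in wt by a log2 difference of -1.33 ± 0.62 (adjusted p = 0.352, exact permutation p = 0.0571). *Dusp5* had 8.61 ± 0.46 for wt, 9.11 ± 0.57 for MK2-/- and 7.94 ± 0.88 for MK2/3-/- BMDM, with a log2 difference of -1.18 ± 0.47 between the mutants (adjusted p = 0.507). *Dusp1* had 14.26 ± 0.24, 13.68 ± 0.56 and 14.43 ± 0.34 in the same order, and the mutants differed by 0.75 ± 0.30 (adjusted p = 0.509). For *Dusp2*, whose means after LPS were 17.25, 17.42 and 17.64, the intervals of the 3 differences reached from -0.63 to 1.19. The second probe of *Dusp8* was higher in MK2/3-/- than in wt BMDM by 1.60 ± 0.55 (adjusted p over all probes = 0.199), with LPS replicate 3 of MK2/3-/- BMDM at 9.11 and its other replicates between 6.09 and 6.47. The first probe of the gene had a difference of -0.13 ± 0.47.

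In medium the 3 genotypes had 0 called members in each comparison, with 0.00769% (MK2-/- against wt), 0.0769% (MK2/3-/- against wt) and 0.0461% (MK2/3-/- against MK2-/-) of all genes called. At an unadjusted limma p under 0.05 there were 1, 0 and 0 members, and 3.42%, 4.63% and 3.57% of all genes, and the test of the study's methods with adjustment called 0 as well. The 1 was *Dusp2*, with a mean of 9.14 ± 0.78 (SD, n = 4) for wt BMDM, compared with 10.02 ± 0.36 (SD, n = 3) for MK2-/- BMDM (log2 difference 0.88 ± 0.41, adjusted p = 1.00), with a wt replicate 2 at 10.30 among the mutant arrays.

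Interaction terms compared the size of the LPS response between genotypes, and 0 members passed in any of the 3 (0.00384%, 0.0115% and 0% of all genes). The unadjusted counts were 0 for MK2-/- against wt, 2 for MK2/3-/- against wt and 2 for MK2/3-/- against MK2-/- BMDM, with 1.91%, 4.54% and 2.88% of all genes, and the adjusted p-values of these members were 0.981 or above. *Dusp7* was in both, as its response differed by 2.02 ± 0.58 on the log2 scale between the mutants and by 1.34 ± 0.56 between MK2/3-/- and wt BMDM. Within cultures, *Dusp7* changed by -1.66, -1.19 and -0.87 in MK2-/- BMDM and by 1.12, -0.07, 1.20 and 0.58 in MK2/3-/- BMDM, which do not overlap, as was the case for 4.21% of all genes. The response of *Dusp16* was larger by 1.23 ± 0.53 in MK2/3-/- than in MK2-/- BMDM, and by 0.97 ± 0.37 on its second probe. That of *Dusp14* was larger by 2.65 ± 1.09 in MK2/3-/- than in wt BMDM, and by 1.26 with the marker level in the fit. The response of *Dusp4*, called in wt and not in MK2/3-/- BMDM, was not shown to differ between them, with an interaction of -1.59 ± 0.87 (95% confidence interval -3.42 to 0.24).

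**Figure D5:**
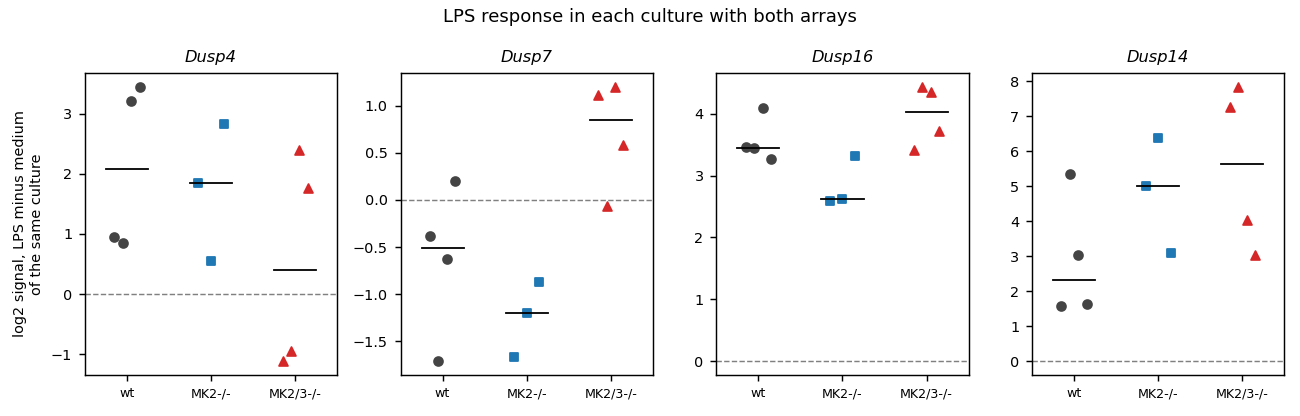
Difference in log2 signal between the LPS and the medium array of the same culture (vertical axes) for *Dusp4*, *Dusp7*, *Dusp16* and *Dusp14*, by genotype. Points are the 11 cultures with both arrays, and bars are medians. *Dusp7* is below 0 in all MK2-/- cultures and at -0.07 or above in the MK2/3-/- cultures, and *Dusp4* falls in a pair of MK2/3-/- cultures.

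The genes most like each of 4 inducible members over the 23 arrays are given as a description, since the arrays share the LPS contrast. Among 13315 named genes above background, *Dusp5* was most like the chemokine gene *Cxcl1* (Pearson r = 0.963), *Clcf1* (0.960) and the chemokine gene *Cxcl2* (0.960). *Dusp16* was most like *Gbp2* (0.981), *Helz2* (0.981) and *Ifit2* (0.981), which are known as interferon-induced genes. *Dusp1* was most like *Tmem171* (0.958), *Tnip3* (0.957), an inhibitor of NF-kB signalling, and *Rlim* (0.954). *Dusp4* had lower values, with *Dot1l* (0.873), *Fem1b* (0.859) and *Flrt3* (0.857).

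Among the other genes of the pathway the response was mixed, and the counts stand beside 8.26% of all genes higher and 8.89% lower in wt, 8.48% and 10.1% in MK2-/-, and 11.9% and 12.9% in MK2/3-/- BMDM. Of 15 further dual-specificity phosphatases 1 rose and 0 fell in wt BMDM, *Dusp11*, an RNA phosphatase, with a log2 difference of 1.59 (adjusted p = 0.00415), and their median was -0.33. In the mutants *Dusp11* again was the 1 that rose. *Dusp3* fell in MK2-/- BMDM (log2 difference -1.15, adjusted p = 0.00424), and *Dusp12* fell in MK2/3-/- BMDM (-0.73, adjusted p = 0.0416). *Dusp26* was also called there, but it was well above background on 1 of the 4 medium arrays and 0 of the 4 LPS arrays, so no size is given. Of the 13 MAP kinase genes, *Mapk6* (ERK3) rose by 2.08 and *Mapk7* (ERK5) fell by 1.80 on the log2 scale in wt BMDM, and the other 11 did not pass. *Mapk6* rose and *Mapk7* fell in both mutants too, and *Mapk8* (JNK1) rose in MK2-/- BMDM (log2 difference 1.46, adjusted p = 0.0142). Of 7 MAP kinase kinase genes 2 rose in wt BMDM, *Map2k4* (log2 difference 1.22) and *Map2k1* (0.58), and in the mutants *Map2k3* was added (0.48 in MK2-/-, 0.50 in MK2/3-/-).

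Upstream, 6 of 17 kinases and adaptors rose and 5 fell in wt BMDM, 7 rose and 4 fell in MK2-/- and 8 rose and 5 fell in MK2/3-/- BMDM. *Map3k8* (Tpl2, which drives ERK after LPS) rose by 2.86 and *Map3k6* by 2.28, while *Tab1*, a partner of TAK1, fell by 3.01 and *Map3k1* by 2.03 on the log2 scale in wt BMDM. Other restraints of the pathway also moved both ways, with 3 of 14 higher and 3 lower in wt BMDM, and 5 higher and 1 lower in each mutant. The ERK pathway inhibitors *Spred1* (log2 difference 3.29, adjusted p = 9.20e-07) and *Spred2* (2.12, adjusted p = 0.00119) and the phosphatase gene *Ppm1b* (1.48, adjusted p = 1.84e-05) rose in wt BMDM. The 5 called higher in MK2/3-/- BMDM include *Spred3*, which was well above background on 0 of the 4 medium arrays and 1 of the 4 LPS arrays there, so no size is given. After LPS 1 of the 17 upstream genes, *Map3k11*, was called between MK2/3-/- and wt BMDM (log2 difference 0.85, adjusted p = 0.00217), next to 1.64% of all genes. This call was lost with only both groups in the fit and with the adjusted test of the study's methods, where no gene was called higher. None of the further phosphatases, MAP kinases, MAP kinase kinases or restraints was called between genotypes after LPS.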

How the data were processed

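RNA of 23 BMDM samples had been labelled with Cy3 and hybridised to one-colour Agilent mouse gene expression arrays, and the methods describe the replicates as independent experiments. The deposited intensity values are spot signals that the authors obtained with Agilent Feature Extraction 11.0.1.1, background-subtracted and detrended within each array and not scaled between arrays. The authors also deposited a table of log2 values, quantile normalized in GeneSpring GX and set relative to the median of all samples for each probe, which served as an alternative.

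From the intensities, control spots and spots flagged as non-uniform or population outliers were left out, the log2 processed signal was averaged over the spots of a probe and quantile normalized over the 23 arrays, and each gene was represented by the 1 of its probes that rose most with LPS in wt BMDM. Of 55681 probes, 32885 carried an NCBI accession and formed 26014 genes, and 27509 of the 29150 RefSeq probes were named through the RefSeq table (GRCm38.p6). Samples were grouped by the genotype and treatment of their labels. Group means of all 23 arrays were fitted in 1 model with limma 3.58.1 (R 4.3.3), contrasts were adjusted by Benjamini-Hochberg over all genes, and exact two-sided permutation tests were run for single members. The p-values measure the spread between these samples, whose number limits the precision. Scripts were checked on simulated data, and figures were drawn with matplotlib 3.10.9.

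The members and gene lists were chosen with earlier results of these data known. The genes named are the members, the targeted kinase genes, up to 4 genes of each pathway list with the largest change in wt BMDM among those passing in some genotype, *Map3k11*, which was named after its value was seen, and the most alike genes by Pearson correlation for 4 members. Medium and LPS arrays of one culture, matched by the culture letter in the array names, deviated together. For the 11 pairs the correlation of deviations from the group means was 0.359 to 0.776 over 12576 bright genes and 0.0657 to 0.566 over all genes, and culture was therefore tried as a block. The alternatives were 75th percentile scaling, normexp background correction, a floor of 5, a filter on dim probes, other rules for the probe of a gene, the deposited log2 table, the culture block, fits of only the groups compared, the methods' own test, and leaving out each array. The fits without both arrays lacking a gradient fit and with the fibroblast marker level were added after seeing the data. Marker lists of T and NK cells, neutrophils and dendritic cells were also measured.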

Additional observations from a re-analysis of the deposited data

Results flagged for a closer look

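In 6 of 60 groups of 4 arrays, 1 array stood further from the others than Dixon's limit, which chance alone gives for about 1 group in 20. *Dusp2* was highest in medium replicate 2 of wt BMDM at a log2 signal of 10.30, next to 8.72 to 8.80 in the other replicates. *Dusp2* was also highest in LPS replicate 2 of MK2-/- BMDM at 17.81. *Dusp6* was lowest in LPS replicate 1 of MK2-/- BMDM at 8.48, an array without a gradient fit, with the others at 9.49 to 9.62. *Dusp7* was lowest in LPS replicate 2 of wt BMDM at 8.04, within a group whose range was small. The second probe of *Dusp8* had 9.11 in LPS replicate 3 of MK2/3-/- BMDM, where the others were at 6.09 to 6.47, and 4.39 in LPS replicate 3 of wt BMDM, where the others were at 5.61 to 5.73. The first probe of *Dusp8* had 6.15 and 7.40 on these same arrays and did not stand apart.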

How the results depend on the processing

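No called or nominally different member changed its direction under any alternative, and 437 counts of passing members over the alternatives stayed within 1.5 times of the main count. The 1 exception was MK2/3-/- BMDM with LPS, where the methods' t-test on linear signals passed 3 members instead of 5. Most of the 437 were counts of genotype comparisons and interactions, whose main count was 0 and which were 0 under every alternative. The counts with LPS ran from 4 to 6 in wt, from 4 to 8 in MK2-/- and from 3 to 6 in MK2/3-/- BMDM. Leaving out 1 array at a time gave 5 to 6 passing members in wt, 5 to 7 in MK2-/- and 5 to 6 in MK2/3-/- BMDM with LPS, and 0 to 0 in the genotype comparisons and interactions. With the culture as a block, which pairs the medium and LPS arrays, the count in MK2-/- BMDM went from 6 to 7 through *Dusp4* (log2 difference 1.77, adjusted p = 0.0483), and no other call of a member changed. The methods' t-test on log2 signals passed 4, 5 and 5 members with LPS in wt, MK2-/- and MK2/3-/- BMDM after adjustment, and 6, 8 and 5 at an unadjusted p under 0.05. On linear signals these counts were 4, 4 and 3, and 6, 7 and 5. Between genotypes either form called 0 after adjustment, and unadjusted 1 member for MK2-/- against wt and 3 for MK2/3-/- against MK2-/- BMDM after LPS. Interactions were not run with that test. Scaling to the 75th percentile moved the median of all genes by over 0.1 in 6 comparisons, by 0.142 in wt and 0.207 in MK2-/- BMDM with LPS, by 0.143 and 0.133 for MK2/3-/- against wt and MK2-/- BMDM after LPS, and by 0.150 and 0.161 for the same pairs in medium. It also moved the split of higher and lower genes after LPS from 4 and 4 to 4 and 7 (MK2-/- against wt) and from 15 and 27 to 13 and 11 (MK2/3-/- against MK2-/-), and in medium from 7 and 13 to 8 and 8 (MK2/3-/- against wt). Under normexp the split in medium between the mutants went from 4 and 8 to 1 and 9, and that of the interaction between MK2/3-/- and wt from 0 and 3 to 1 and 7. *Dusp14* and *Dusp5* in medium were close to background, which limits the precision of their folds.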
